A study of Homo sapiens with 6 samples.

Results

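The subunits of the mitochondrial respiratory chain and of ATP synthase are encoded in part by nuclear genes and in part by mitochondrial DNA, and their transcripts were compared between control and IRF1-silenced BT-549 cells by complex and by genome. Members were chosen by gene symbol and not by a cut on measured values, although earlier results of these data were known. The symbols taken were the numbered NDUFA, NDUFB, NDUFC, NDUFS and NDUFV genes, SDHA to SDHD, CYC1 and the UQCR genes. The COX4 to COX8 genes, the ATP5 genes and the protein-coding genes of mitochondrial DNA were also taken. This gave 100 of the 37887 symbols in the count table, of which 87 are nuclear and 13 mitochondrial, after 95 symbols of nuclear pseudogenes were left out. The nuclear members comprise 36 genes of complex I, 4 of complex II, 10 of complex III, 18 of complex IV and 19 of complex V, with NDUFA4 placed in complex IV, where its protein is found.

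The BT-549 line comes from a human triple-negative breast cancer, and IRF1 is a transcription factor of the interferon response. The 3 control samples were given 0.1% DMSO and the 3 IRF1shRNA samples 500 ng/ml doxycycline, which induces the hairpin from a tetracycline-controlled vector. The design text describes a single line carrying that vector in every sample, whereas the sample titles call the control a control shRNA. No control sample received doxycycline, so effects of the drug and of the hairpin cannot be told apart. If the titles hold, the groups would also be separate lines, and effects of the line could not be told apart either. Doxycycline is an antibiotic of the tetracycline class, which is known to inhibit protein synthesis on mitochondrial as well as bacterial ribosomes. Library totals ran from 55143808 counts in IRF1shRNA replicate 2 to 160436234 in IRF1shRNA replicate 3, so that 3 counts correspond to between 0.0182 and 0.0540 CPM (counts scaled to a common library total). IRF1 itself measured 45.3, 48.1 and 51.5 CPM in the control samples and 13.8, 14.9 and 14.6 CPM in the IRF1shRNA samples, in the order of their replicate numbers, which is kept in all lists of values here. Of the marker genes, VIM (592 to 945 CPM) and ZEB1 (77.7 to 89.8 CPM), which are typical of mesenchymal cells, were well detected, the hormone receptor genes ESR1 and PGR stayed at or below 0.324 CPM, ERBB2 lay between 35.0 and 54.8 CPM, and leukocyte, endothelial and epithelial markers (PTPRC, CD3E, PECAM1 and EPCAM) stayed at or below 0.757 CPM. VIM (−0.56 ± 0.05 on the log2 scale, edgeR adjusted p = 3.1e-08), ERBB2 (−0.48 ± 0.06, adjusted p = 1.47e-06) and ZEB1 (−0.14 ± 0.04, adjusted p = 0.0118) were lower in IRF1shRNA samples, and their part in the results on the subunits was not tested. The replicates are labelled as triplicate cultures, and p-values measure only the spread between them, which may be technical.

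In the respiratory chain, complex I takes electrons from NADH, complex II takes them from succinate, complex III passes them from ubiquinol to cytochrome c, complex IV delivers them to oxygen, and complex V uses the resulting proton gradient to make ATP. Mitochondrial DNA is transcribed from both strands as long precursors that are cut, mostly at tRNA genes, into the individual RNAs. Its protein-coding genes encode hydrophobic membrane subunits of complexes I, III, IV and V, whereas complex II is entirely nuclear and all other subunits are imported from the cytosol.

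Sequences are shown for 3 places on which the results below bear. The reading frames of MT-ATP8 and MT-ATP6 overlap by 46 bases of the same transcript (chrM:8527-8572, plus strand, GRCh38), which is 22.2% of MT-ATP8. The overlap is printed with the start codon of MT-ATP6 and the stop codon of MT-ATP8 in capitals, because reads in it belong to both genes. For NDUFB4, which fell, the 150 bases just upstream of its annotated gene (chr3:120596159-120596308, plus strand, RefSeq GRCh38.p14) hold the letters searched for as a motif of nuclear respiratory factor 1 (NRF1), in capitals. For COX7C, the subunit with the largest increase, the 150 bases in the same position (chr5:86617754-86617903, plus strand) hold none of the 4 motifs searched. The pair is no test of the letters: of 10 members with the NRF1 letters, 3 fell, 1 rose and 6 were not called. Among all genes tested, 26.4% were called lower and 24.1% higher. The fall of NDUFB4 was small (−0.17 on the log2 scale), and its call was lost without control replicate 2.
MT-ATP8/MT-ATP6 overlap: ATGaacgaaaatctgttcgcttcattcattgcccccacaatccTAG
NDUFB4 promoter: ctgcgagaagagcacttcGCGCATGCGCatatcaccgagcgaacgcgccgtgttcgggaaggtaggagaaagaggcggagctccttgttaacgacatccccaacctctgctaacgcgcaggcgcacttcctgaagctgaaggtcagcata
COX7C promoter: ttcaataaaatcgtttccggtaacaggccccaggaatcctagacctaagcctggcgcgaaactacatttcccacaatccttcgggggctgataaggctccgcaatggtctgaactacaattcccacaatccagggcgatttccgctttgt

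The nuclear subunits changed in both directions and mostly by little, whereas the mitochondrially encoded subunits were lower or not called. At an adjusted p under 0.05 in the edgeR quasi-likelihood test (Benjamini-Hochberg, 18851 genes), 22 of the 83 nuclear members tested were higher in IRF1shRNA cells, 11 were lower and 50 were not called. Of the 13 mitochondrial members, none were higher, 7 were lower and 6 were not called. Across all genes tested, 50.5% were called, 24.1% as higher and 26.4% as lower. The shares of members called, 39.8% of the nuclear and 53.8% of the mitochondrial members tested, were thus below and close to that background. The median log2 fold change was 0.03 for nuclear members and −0.13 for mitochondrial members, beside 0.00 for all genes tested. Only COX7C, with a rise, and COX7A1, with a fall, moved by more than 0.5 on the log2 scale among the nuclear members. The remaining nuclear members, COX4I2, COX6A2, COX7B2 and COX8C, had too few counts to be tested. With library size as the only scaling, the split of the nuclear members was 33 higher and 10 lower. Of the mitochondrial members, 1 (MT-CO1) was then called higher and 5 lower, and the median of all genes tested was 0.05.

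**Figure D1:**
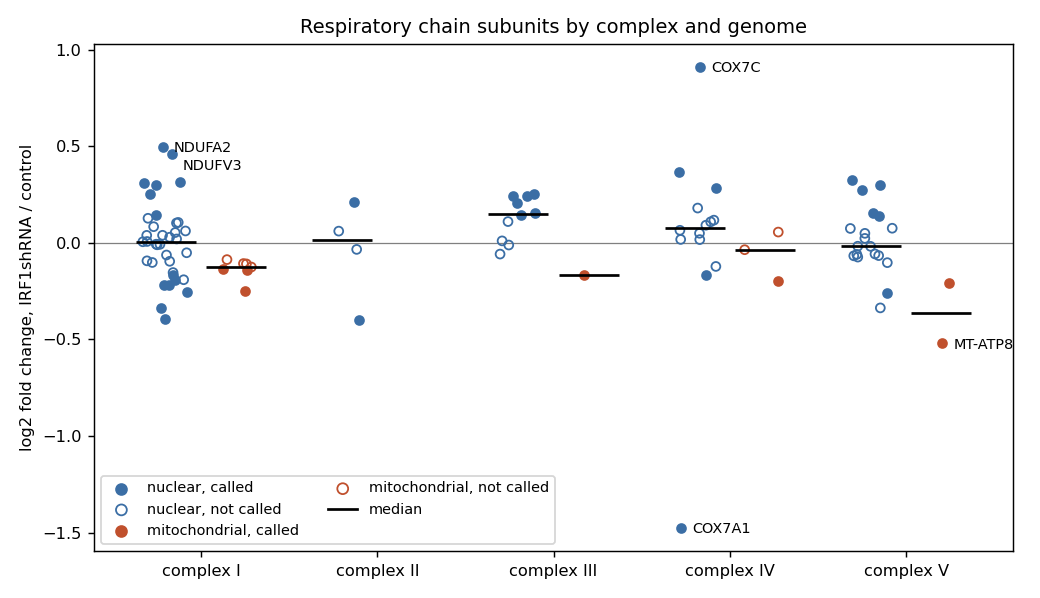
Log2 fold change of each tested subunit (vertical axis, IRF1shRNA over control) by complex, with nuclear genes in blue and mitochondrial genes in red; filled circles passed the edgeR test, open circles did not, and bars are medians. Nuclear subunits of complex III sit mostly above 0, the mitochondrial subunits mostly below it, and COX7C (0.91) and COX7A1 (−1.48) stand far from the other subunits.

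Within each library, the ratio of mitochondrial to nuclear subunit counts does not depend on library scaling, and it was lower in every IRF1shRNA sample than in every control sample for each of the complexes built from both genomes. Summed over all complexes, there were 2.95, 2.86 and 2.88 mitochondrial counts for each nuclear count in the control samples and 2.57, 2.698 and 2.55 in the IRF1shRNA samples. The groups do not overlap, and the mean ratio fell from 2.90 ± 0.0453 to 2.61 ± 0.0790 (SD, n = 3), 89.9% of control. This ratio gets no test, since members were chosen with results of these data known.

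The difference between the groups was larger for complexes III and V than for complexes I and IV. For complex V, the ratio was 0.544, 0.483 and 0.502 in control samples and 0.414, 0.423 and 0.384 in IRF1shRNA samples, a mean of 80.0% of control. For complex III it was 1.57, 1.51 and 1.53 against 1.22, 1.34 and 1.23, which is 82.2% of control. Of the complexes built from both genomes, complex V is the single one in which nuclear counts outnumbered mitochondrial ones. In complex III, MT-CYB alone makes up the mitochondrial side. In complex IV the ratio was 8.07, 8.07 and 7.97 against 6.96, 7.34 and 7.25, or 89.4% of control. In complex I it was 3.56, 3.35 and 3.39 against 3.10, 3.29 and 3.0, or 91.2% of control, with the lowest control sample and the highest IRF1shRNA sample close to each other. Single abundant genes weighed on these sums: the log2 difference for complex IV was −0.16 with all members, −0.08 without COX7C, −0.25 without MT-CO1 and −0.10 as a difference of mean log2 levels, with no overlap between the groups under any of these. Nuclear subunits took 0.716% to 0.757% of all counts in control samples and 0.784% to 0.824% in IRF1shRNA samples, without overlap, while mitochondrial subunits took 2.10% to 2.18% and 2.001% to 2.20%, with overlap.

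**Figure D2:**
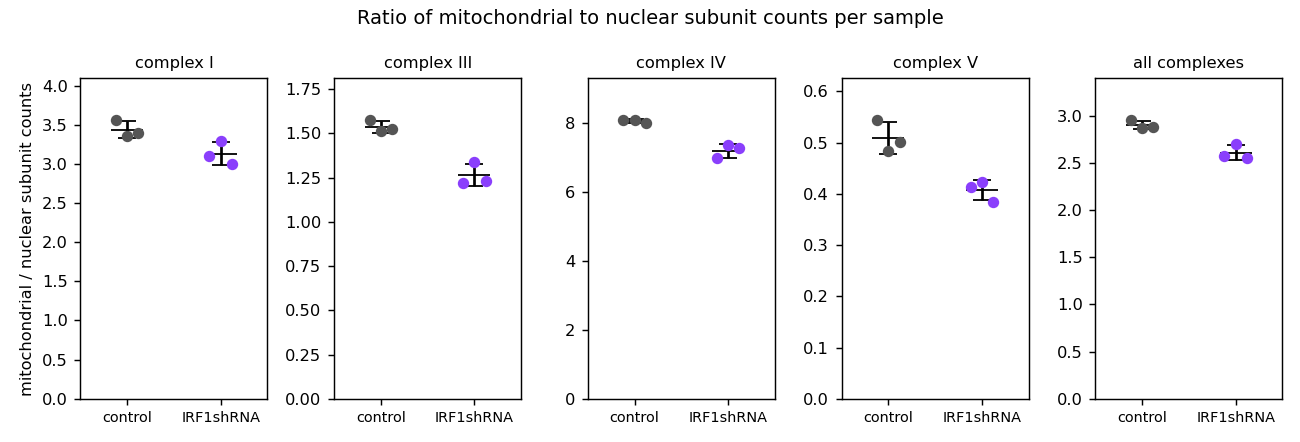
Ratio of summed mitochondrial to summed nuclear subunit counts in each sample (vertical axis, starting at 0) for the 4 complexes built from both genomes and for all complexes together; points are samples, bars are the mean ± SD of 3. In each panel the 3 IRF1shRNA points lie below the 3 control points, with the mean falling from 0.509 to 0.407 in complex V and from 3.43 to 3.13 in complex I.

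Mitochondrial DNA encodes MT-ATP8 and MT-ATP6 of complex V, and both fell. MT-ATP8, a short subunit of the membrane part of ATP synthase, measured 73.1, 53.3 and 59.6 CPM in the control samples and 46.6, 44.6 and 38.8 CPM in the IRF1shRNA samples. The groups do not overlap, and the log2 fold change was −0.52 ± 0.09 (SE; edgeR quasi-likelihood test, adjusted p = 8.06e-05), the largest fall among the mitochondrial members. MT-ATP6, which forms the proton channel and lies on the same transcript, was at 1291, 1202 and 1297 CPM against 1113, 1174 and 997 CPM. Its log2 fold change of −0.21 ± 0.06 (edgeR adjusted p = 0.00504) was closer to 0 than that of MT-ATP8, and the count ratio of MT-ATP8 to MT-ATP6 was 0.0566, 0.0443 and 0.0460 in control and 0.0419, 0.0379 and 0.0389 in IRF1shRNA samples. How reads in the 46 shared bases were assigned is not given in the sources used here, and its part in this ratio was not tested. MT-ATP8 and MT-ATP6 were the mitochondrial calls that held under each of the 15 alternative fits.

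In complexes III and IV, MT-CYB and MT-CO2 fell while MT-CO1 and MT-CO3 were not called. MT-CYB, the cytochrome b of complex III, was at 1637, 1615 and 1698 CPM in control samples and 1455, 1569.8 and 1379 CPM in IRF1shRNA samples (−0.17 ± 0.05 on the log2 scale, edgeR adjusted p = 0.0101). MT-CO2, which receives electrons from cytochrome c, was at 1621, 1723 and 1795 CPM against 1558, 1588 and 1343 CPM (−0.20 ± 0.06, edgeR adjusted p = 0.0113). Neither gene's groups overlap, although both calls were lost without IRF1shRNA replicate 3 (log2 fold changes of −0.13 for MT-CYB and −0.12 for MT-CO2) and without control replicate 3 (−0.14 and −0.16). MT-CO1, the catalytic subunit of complex IV and the most abundant member, was at 6568, 6686 and 7075 CPM against 6891, 7371 and 6871 CPM, with overlapping groups (0.06 ± 0.05, edgeR adjusted p = 0.396). MT-CO3 likewise overlapped, at 2697, 2905 and 2932 CPM against 2803, 2958 and 2567 CPM (−0.04 ± 0.06, edgeR adjusted p = 0.636), and the sign of its difference turned under other scalings. MT-CO1 took a larger share of all mitochondrial subunit counts after silencing, at 30.9%, 31.3% and 31.6% in the control samples and 33.2%, 33.7% and 35.2% in the IRF1shRNA samples.

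The 7 mitochondrial subunits of complex I, which form the proton-pumping membrane arm, all had negative log2 fold changes, and 3 of them were called. MT-ND6 is the member encoded on the other strand of mitochondrial DNA, and in human cells its RNA is known to lack a poly(A) tail. It was at 184, 161 and 178 CPM in control samples and 168, 146 and 127 CPM in IRF1shRNA samples (−0.25 ± 0.07, edgeR adjusted p = 0.00992), the groups overlap through IRF1shRNA replicate 1, and the call was lost without IRF1shRNA replicate 3 (−0.15) and under DESeq2 (−0.24). The libraries were made with a kit that selects polyadenylated RNA, and the strand setting used in counting is not given in the sources used here, so MT-ND6 and RNA transcribed across it from the other strand cannot be told apart. MT-ND2 was at 862, 823 and 852 CPM against 809, 795 and 700.2 CPM (−0.14 ± 0.05, edgeR adjusted p = 0.0351), without overlap. MT-ND4 was at 3208, 3117 and 3296 CPM against 2892, 3127 and 2749 CPM (−0.13 ± 0.05, edgeR adjusted p = 0.0412), with IRF1shRNA replicate 2 inside the control range. These last calls, MT-ND2 and MT-ND4, were lost in 8 and 10 of the 15 alternative fits. MT-ND1 was at 974, 982 and 996 CPM against 963, 963 and 856 CPM and did not pass the test (edgeR adjusted p = 0.162) although its groups do not overlap. MT-ND3, MT-ND4L and MT-ND5 were not called either, at log2 fold changes of −0.11, −0.12 and −0.11.

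Across the mitochondrial members, 12 of 13 had a negative log2 fold change, MT-CO3 turning positive with library size only or upper quartile scaling. Groups did not overlap for 6 of the 13, and for 36 of the 83 nuclear members tested, both smaller shares than the 56.8% of all genes tested. IRF1shRNA replicate 3 was the lowest of all samples for 12 of the 13, and the number of calls rested on it: without it 2 mitochondrial members were called lower, and without control replicate 3 the count was 3. Per kilobase of exon, their control levels ran from 299 CPM for MT-ATP8 and 332 CPM for MT-ND6 to 3628 CPM for MT-CO3 and 4394 CPM for MT-CO1. Nuclear genomes hold copies of mitochondrial genes, and 394 symbols of such copies carried counts equal to 1.54% to 1.70% of the mitochondrial subunit counts in each sample. The 2 ribosomal RNAs of mitochondria, which lack the long poly(A) tails the kit selects, varied widely within groups and were not called (edgeR adjusted p = 0.57 for MT-RNR1 and 0.985 for MT-RNR2), but MT-RNR1 was called higher without IRF1shRNA replicate 2 (0.98 on the log2 scale) and with no filter (0.46). MT-RNR1 was at 26.1, 7.97 and 7.92 CPM in control and 22.9, 0.793 and 31.6 CPM in IRF1shRNA samples, and MT-RNR2 was at 51.8, 11.7 and 13.9 against 31.1, 1.64 and 41.5 CPM. Both were lowest in IRF1shRNA replicate 2, in which none of the 13 subunit mRNAs was lowest. In bulk RNA, fewer cells of a type and less RNA per cell cannot be told apart. Because the kit selects polyadenylated RNA, fewer transcripts and a change in their tails or capture cannot be told apart either.

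**Figure D3:**
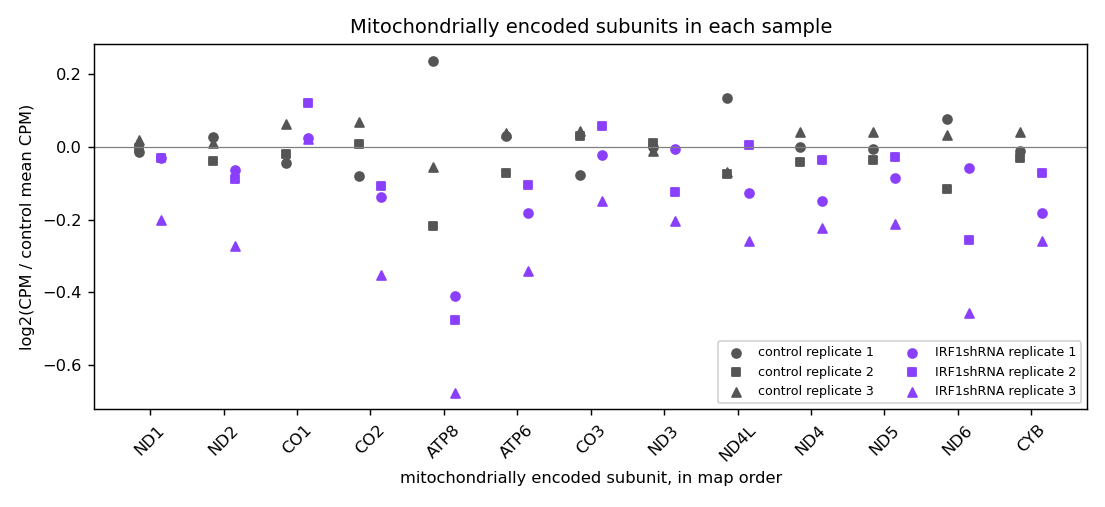
Level of each mitochondrial subunit in each sample (vertical axis, log2 of CPM over the control mean), in the order of the genes on the map; gray points are control samples, purple points IRF1shRNA samples, and the shape gives the replicate. MT-ATP8 shows the largest gap between groups (−0.52 in the fit), MT-CO1 and MT-CO3 overlap, and IRF1shRNA replicate 3 is mostly lowest.

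Complex IV held the nuclear subunits that changed most. COX7C, a small nuclear subunit on chromosome 5 (chr5:86617904-86620962, plus strand, GENCODE release 29 on GRCh38), was at 104, 105 and 115 CPM in control and 209.9, 213 and 188 CPM in IRF1shRNA samples. The lowest IRF1shRNA sample lay well above the highest control sample, and the rise was to 188% of control (0.91 ± 0.05, edgeR adjusted p = 2.95e-10). The exons of COX7C share 4.0% of their bases with an annotated microRNA gene on the same strand. COX7A1, the isoform of subunit 7A typical of heart and skeletal muscle (chr19:36150922-36152869, minus strand), was at 5.01, 6.201 and 6.28 CPM against 2.21, 1.73 and 2.24 CPM. This was a fall to 35.3% of control (−1.48 ± 0.12, edgeR adjusted p = 1.31e-08) without overlap. COX7A2, the isoform that most tissues use, was not called, at 149, 159 and 172 CPM against 173, 187 and 159 CPM (0.11 ± 0.06, edgeR adjusted p = 0.14). COX7A1 counts were a small part of COX7A2 counts in every sample, with ratios of 0.0336, 0.0390 and 0.0364 in control and 0.0128, 0.00925 and 0.0141 in IRF1shRNA samples.

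Of the other complex IV members, COX7A2L and NDUFA4 rose and COX6B1 fell. COX7A2L, a relative of COX7A2 known to join complexes III and IV into supercomplexes, was at 80.5, 77.7 and 78.4 CPM in control samples and 103, 103 and 99.6 CPM in IRF1shRNA samples (0.37 ± 0.04, edgeR adjusted p = 7.18e-07). NDUFA4 was at 169, 175 and 183 CPM against 226, 216 and 199 CPM (0.28 ± 0.05, edgeR adjusted p = 0.000116), again without overlap. COX6B1, on the face of the complex where cytochrome c docks, was at 141, 149 and 161 CPM against 139, 132 and 131 CPM (−0.17 ± 0.05, edgeR adjusted p = 0.00843), and this call was lost without control replicate 3 (−0.11). The tissue-restricted isoforms were scarce or silent: COX6B2, known from testis, was at 0.284 to 0.468 CPM and was not called (0.18 ± 0.30, edgeR adjusted p = 0.652), COX4I2 and COX6A2 had at most 3 counts in any sample, and COX7B2 and COX8C had 0 counts in all 6 samples. The other 8 nuclear subunits tested that are not tissue-restricted, which include COX4I1, COX5A and COX5B, were not called and lay within ±0.122 on the log2 scale.

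**Figure D4:**
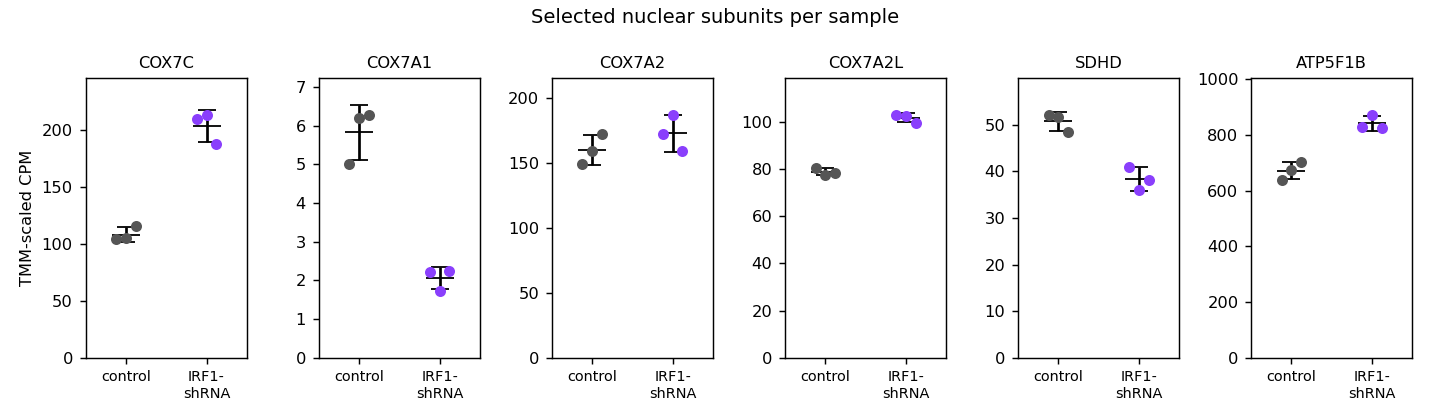
Level of 6 nuclear subunits in each sample (vertical axes, TMM-scaled CPM, each starting at 0), with points for samples and bars for the mean ± SD of 3. COX7C and COX7A2L lie higher and COX7A1 and SDHD lower in all IRF1shRNA samples, ATP5F1B rises from 672 ± 31.1 to 842 ± 26.3 CPM, and COX7A2 overlaps between groups.

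In complex III, 6 of the 10 nuclear genes rose and none fell, where 24.1% of all genes tested were called higher. All 5 accessory subunits rose, namely UQCR10 (0.25), UQCR11 (0.24), UQCRB (0.21), UQCRH (0.15) and UQCRQ (0.14 on the log2 scale), as did the core subunit UQCRC2. UQCRC2 was at 118, 122 and 128 CPM in control and 144, 155 and 137 CPM in IRF1shRNA samples (0.24 ± 0.05, edgeR adjusted p = 0.000493). UQCR10 was at 23.96, 25.9 and 25.7 CPM against 30.6, 32.1 and 27.5 CPM (0.25 ± 0.06, edgeR adjusted p = 0.0032), and UQCR11 was at 17.5, 17.1 and 18.2 CPM against 21.4, 21.4 and 19.8 CPM (0.24 ± 0.06, edgeR adjusted p = 0.00359). Groups overlapped for UQCRQ alone among these 6 genes, and its call was lost without IRF1shRNA replicate 1 or 2 and without control replicate 1 or 2, with a lowest value of 0.12 over all 15 alternative fits. The electron-carrying subunits CYC1 (cytochrome c1, −0.06 ± 0.05) and UQCRFS1 (the Rieske iron-sulfur protein, −0.01 ± 0.04) and the other core subunit UQCRC1 (0.01 ± 0.04) were not called. MT-CYB, the mitochondrial partner of these genes in the complex, fell as described above. UQCRHL, a near-identical copy of UQCRH whose reads may be split between them, was at 7.89 to 9.82 CPM and not called (0.11 ± 0.08, edgeR adjusted p = 0.281).

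The subunits of complex II went in opposite directions at its membrane anchor. SDHD, the smaller anchor subunit (chr11:112086773-112120013, plus strand), was at 52.1, 51.7 and 48.4 CPM in control samples and 40.97, 35.9 and 38.2 CPM in IRF1shRNA samples, a fall without overlap (−0.40 ± 0.05, edgeR adjusted p = 7.29e-06). SDHC, with which it binds ubiquinone and heme, was at 70.97, 74.9 and 77.7 CPM against 87.2, 92.2 and 80.4 CPM and rose (0.21 ± 0.05, edgeR adjusted p = 0.00215). The catalytic subunits SDHA, the flavoprotein, and SDHB, the iron-sulfur protein, were not called (−0.03 ± 0.06 and 0.06 ± 0.05). Of the exon bases of SDHD, 11.2% are shared with another gene on the same strand, and both SDHC and SDHD have opposite-strand neighbors.

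In complex I, 7 of the 36 nuclear subunits rose, 7 fell and 22 were not called (38.9% called). Of all genes tested, 50.5% were called, 24.1% as higher and 26.4% as lower. Among the 9 accessory subunits of the peripheral arm, which carries the flavin and the iron-sulfur clusters, 4 rose and 1 fell (55.6% called). Among the 20 accessory subunits of the membrane arm, 3 rose and 5 fell (40.0% called). NDUFA2 and NDUFV3, accessory subunits of the peripheral arm, rose most. NDUFA2 was at 25.5, 26.9 and 30.2 CPM against 40.1, 38.03 and 38.3 CPM (0.50 ± 0.06, edgeR adjusted p = 3.2e-06), and NDUFV3 was at 21.8, 22.4 and 22.1 CPM against 31.6, 31.1 and 28.8 CPM (0.46 ± 0.06, edgeR adjusted p = 3.48e-06). NDUFA11, a membrane-arm subunit, was at 12.4, 12.1 and 13.2 CPM against 15.1, 17.5 and 14.7 CPM (0.32 ± 0.08, edgeR adjusted p = 0.00199). These groups do not overlap.

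The largest falls in complex I were in the membrane arm. NDUFA3 was at 36.2, 39.5 and 43.7 CPM in control and 33.03, 28.1 and 29.8 CPM in IRF1shRNA samples (−0.39 ± 0.07, edgeR adjusted p = 0.000156). NDUFA8 was at 60.05, 58.9 and 64.9 CPM against 50.05, 49.2 and 46.4 CPM (−0.34 ± 0.05, edgeR adjusted p = 1.42e-05), and NDUFB8 was at 14.2, 14.9 and 15.7 CPM against 12.5, 12.95 and 12.2 CPM (−0.25 ± 0.07, edgeR adjusted p = 0.00466). All 3 genes lay below the control range in every IRF1shRNA sample, but 33.8% of the exon bases of NDUFB8 are shared with another gene on the same strand. Other called genes were NDUFS4 (0.31), NDUFB9 (0.30), NDUFA5 (0.26) and NDUFB3 (0.15), which rose, and NDUFA12 (−0.22), NDUFB5 (−0.19) and NDUFB4 (−0.17 on the log2 scale), which fell. The calls of NDUFB3 (without IRF1shRNA replicate 1, control replicate 1 or control replicate 2), NDUFB5 (without control replicate 1 or 2) and NDUFB4 (without control replicate 2) were lost when single libraries were left out, that of NDUFB5 also with library size only and upper quartile scaling, and over all 15 alternative fits the values came as close to 0 as 0.10, −0.14 and −0.12. Of the remaining subunits, NDUFA7, NDUFA13 and NDUFV2 were listed at 0.547 to 3.09 CPM, below the others of the complex. Between 21.0% and 32.3% of their exon bases are shared with another gene on the same strand, and how such reads were counted is not given in the sources used here.

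In complex V, 5 nuclear genes rose, 1 fell and 13 were not called (31.6% called). Of all genes tested, 50.5% were called, 24.1% as higher and 26.4% as lower. ATP5F1B, the catalytic beta subunit and the most abundant nuclear member by CPM (chr12:56638175-56646068, minus strand), was at 639.9, 673 and 702 CPM in control and 830.1, 872 and 824 CPM in IRF1shRNA samples. It rose to 125% of control without overlap (0.33 ± 0.05, edgeR adjusted p = 1.3e-05), whereas its partner in the catalytic hexamer, ATP5F1A, was not called (0.05 ± 0.05). Counts of ATP5F1B and COX7C weighed on the nuclear sums used in the ratios above, and without both genes the log2 difference of the ratio was −0.23 for complex V in place of −0.32 and −0.11 for all complexes in place of −0.15.

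The ring of the proton turbine is made of 1 protein, subunit c, from 3 nuclear genes that differ in their import sequences, and these genes moved apart. ATP5MC1 was at 58.6, 60.8 and 64.9 CPM against 77.02, 72.8 and 72.98 CPM and rose (0.27 ± 0.05, edgeR adjusted p = 9.39e-05). ATP5MC3 was at 106, 109 and 116 CPM against 93.8, 94.8 and 88.3 CPM and fell (−0.26 ± 0.05, edgeR adjusted p = 0.000146). ATP5MC2 was not called (−0.02 ± 0.05). The share of ATP5MC1 in their summed counts thus went from 21.1% to 21.2% in control samples to 26.01% to 26.4% in IRF1shRNA samples, and that of ATP5MC3 from 37.7% to 38.3% to 31.5% to 34.1%. ATP5ME, subunit e of the membrane part, was at 16.7, 17.04 and 17.1 CPM against 18.96, 25.5 and 18.6 CPM (0.30 ± 0.09, edgeR adjusted p = 0.013). Its rise rested on IRF1shRNA replicate 2, without which the log2 fold change was 0.15 and not called, and 61.6% of its exon bases lie opposite exons of MYL5. ATP5MG (0.16) and ATP5PB (0.14 on the log2 scale) were the other genes that rose. ATP5MG was not called without IRF1shRNA replicate 1, control replicate 1 or control replicate 2, and ATP5PB was not called without IRF1shRNA replicate 2 or control replicate 2, with lowest values of 0.11 and 0.09 over all 15 alternative fits. The isoform ATP5MGL, at 0.222 to 0.406 CPM, was not called (−0.34 ± 0.33, edgeR adjusted p = 0.434).

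Among factors that put the complexes together, more were higher than lower. Of 52 assembly factors tested, 20 rose, 3 fell and 29 were not called (44.2% called). Of all genes tested, 50.5% were called, 24.1% as higher and 26.4% as lower. The median log2 fold change was 0.11, beside 0.00 for all genes. The difference between the numbers of assembly factors that rose and fell was not tested. The largest rises were in SURF1 (0.48 ± 0.08) and COX14 (0.46 ± 0.10), which act in the assembly of complex IV, and in UQCC2 (0.45 ± 0.05), which acts in that of complex III. SURF1 was at 12.2, 13.9 and 14.8 CPM in control and 19.5, 19.9 and 17.7 CPM in IRF1shRNA samples (edgeR adjusted p = 5.3e-05). TMEM126B and ACAD9, partners in the assembly of the complex I membrane arm, fell, as did COX11, which delivers copper to complex IV. Other assembly factors of complex I rose, among them NDUFAF1 (0.39 ± 0.07), TMEM186 (0.21 ± 0.08) and TIMMDC1 (0.19 ± 0.05). ECSIT and COA1 were not called. These other factors were named after their values were seen. TMEM126B was at 31.7, 30.9 and 30.3 CPM against 23.2, 20.6 and 22.1 CPM (−0.49 ± 0.06, edgeR adjusted p = 2.17e-06), while COX11 and ACAD9 changed by −0.26 and −0.22 on the log2 scale. By complex, 7 of 16 factors rose and 2 fell for complex I, 3 of 6 rose for complex III, 8 of 22 rose and 1 fell for complex IV, and 1 of 4 rose for each of complexes II and V.

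The machinery that makes and handles mitochondrial RNA changed in both directions. Of 27 genes, 10 rose, 6 fell and 11 were not called (59.3% called, median 0.11). Of all genes tested, 50.5% were called, 24.1% as higher and 26.4% as lower. PNPT1, a nuclease that degrades mitochondrial RNA and is known as an interferon-inducible gene, had the largest fall. It was at 68.5, 70.3 and 68.6 CPM in control and 47.6, 49.6 and 44.8 CPM in IRF1shRNA samples, without overlap (−0.55 ± 0.05, edgeR adjusted p = 2.02e-08). PRORP, the nuclease subunit of mitochondrial RNase P, whose exons partly overlap another gene on the same strand, was at 4.46, 5.42 and 4.67 CPM against 3.44, 2.47 and 4.07 CPM (−0.51 ± 0.13, edgeR adjusted p = 0.00437). Its partner HSD17B10 rose (0.31 ± 0.04, edgeR adjusted p = 1.4e-05) and the remaining partner, TRMT10C, fell (−0.15 ± 0.05, edgeR adjusted p = 0.0118). MTERF1, a factor that binds within the mitochondrial leucine tRNA gene, fell (−0.35 ± 0.07), and POLG2, the accessory subunit of the mitochondrial DNA polymerase, rose (0.38 ± 0.07). The initiation factors did not move together. TFAM, which packages and activates mitochondrial DNA, was at 109, 103 and 99.2 CPM against 86.1, 81.9 and 83.1 CPM and fell (−0.31 ± 0.04, edgeR adjusted p = 1.73e-05). TFB2M (0.28 ± 0.05) and the RNA polymerase POLRMT (0.24 ± 0.06) rose. MTPAP, the mitochondrial poly(A) polymerase, fell without overlap (−0.32 ± 0.05, edgeR adjusted p = 3.57e-05). Of the 12 genes listed for RNA stability, 5 rose, among them SLIRP (0.13 ± 0.05), and PNPT1 alone fell. The other 6, among them LRPPRC (0.05 ± 0.05), were not called. Whether the poly(A) tails of mitochondrial mRNAs changed, and the part of this in the lower subunit counts, was not tested. TRMT10C, TFAM, POLRMT, MTPAP, SLIRP and LRPPRC were named after their values were seen.

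Regulators known to act on nuclear genes for mitochondrial proteins changed in both directions. Of 11 genes, 5 fell, 3 rose and 3 were not called (72.7% called, beside 50.5% of all genes, of which 26.4% were lower and 24.1% higher), and the median was −0.26. The difference between the numbers that fell and rose was not tested. PPARGC1B, a coactivator of the PGC-1 family, was at 31.2, 34.9 and 32.7 CPM in control and 20.6, 22.1 and 22.2 CPM in IRF1shRNA samples (−0.61 ± 0.06, edgeR adjusted p = 2.54e-07). GABPA, the DNA-binding subunit of the ETS factor GABP, was at 58.1, 55.9 and 52.9 CPM against 41.7, 41.8 and 41.9 CPM (−0.41 ± 0.05, edgeR adjusted p = 9.94e-07), and YY1 was at 151, 152 and 148 CPM against 113, 115 and 114 CPM (−0.40 ± 0.04, edgeR adjusted p = 1.98e-07). GABPA and the complex V gene ATP5PF share 413 exon bases on opposite strands. TFE3, a regulator of lysosomal and mitochondrial genes, rose (0.44 ± 0.04), as did PPRC1 of the PGC-1 family (0.30 ± 0.05). The following were named after their values were seen. GABPB1, the partner of GABPA, fell (−0.35 ± 0.06), as did MYC (−0.26 ± 0.04), and NRF1 did not pass the test (−0.15 ± 0.06, edgeR adjusted p = 0.0544). PPARGC1A, the best known coactivator of mitochondrial biogenesis, was called higher (1.69 ± 0.30) at very low levels, 0.211, 0.147 and 0.148 CPM against 0.555, 0.576 and 0.504 CPM.

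**Figure D5:**
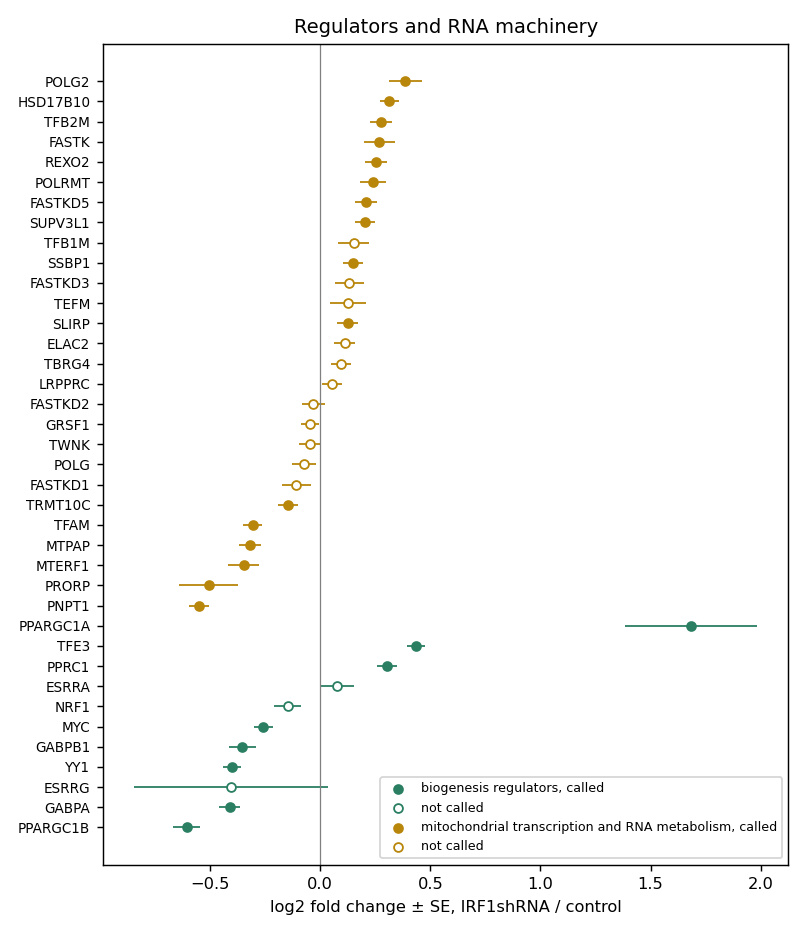
Log2 fold change ± SE (horizontal axis) of the 27 genes of mitochondrial transcription and RNA metabolism (brown) and the 11 biogenesis regulators (green); filled circles passed the edgeR test and open circles did not. PNPT1 (−0.55) and PPARGC1B (−0.61) are the lowest called genes of their lists, and PPARGC1A (1.69) has the widest error among the called ones.

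The promoters of the nuclear members were searched for the letters of these factors on both strands, in windows from 250 bases before to 50 after the gene start. A RefSeq window (GRCh38.p14) was matched for 70 of the 87 nuclear members, of which 18 were called higher and 7 lower. The NRF1 letters GCGCATGCG, which overlap themselves on the opposite strand when followed by C, as in NDUFB4, were found in 10 of 70 (14.3%), beside 1.9% of all 35116 promoters and 3.4% of the 12425 promoters of genes tested. Of those 10 members, NDUFA8, NDUFB4 and SDHD fell, ATP5ME rose and 6 were not called. The ETS letters CCGGAAG were in 20 members (28.6%, beside 10.3% of all promoters and 17.1% of those of genes tested), of which 5 rose, 2 fell and 13 were not called. The YY1 letters AAGATGGC were in 11 (15.7%, beside 2.9% and 4.8%), of which 2 rose, 1 fell and 8 were not called. The letters GAAANNGAA, the core of sites for interferon regulatory factors, were in 5 members (7.1%, beside 8.1% and 6.5%), ATP5F1C, ATP5PF, ATP5PO, NDUFA9 and NDUFS3, none of which were called. These counts of calls stand beside 50.5% of all genes tested that were called, 24.1% as higher and 26.4% as lower. A match describes letters in a window and not a bound site, and no match says only that these letters are not there.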

How the data were processed

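The deposited values were raw counts, not normalized, for each gene symbol in 6 samples (TruSeq stranded mRNA libraries). The submitters' processing notes name CASAVA 1.8.2, STAR 2.7.9a, featureCounts, DESeq2 1.24.0 and GRCh38.p7. Annotation release, strand setting and treatment of multiply mapped reads are not given in the sources used here. Between 72.1% and 75.2% of low counts per sample were even numbers, so an alternative with halved counts was run.

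Counts were tested with edgeR 4.0.16 (R 4.3.3) by the quasi-likelihood test, with group as the single factor, TMM scaling, the filterByExpr filter (minimum count 10) and p-values adjusted by Benjamini-Hochberg across 18851 genes. The script was tested on simulated data. CPM values are TMM-scaled, errors are SE of log2 fold changes or SD over 3 samples, and counting floors cover counting error only. Ratios are of summed counts. Exon lengths, coordinates and overlaps are from GENCODE release 29. Alternatives were DESeq2 1.42.0, other scalings and filters, a replicate block, a threshold of 0.01 and each sample left out; ratios without single abundant genes were added after seeing the data.

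The genes named are all mitochondrial subunits, isoforms, and the 3 subunits per complex and 3 genes per list with the largest called change in each direction at a mean of at least 1 CPM; others named were chosen after their values were seen. Members and lists were chosen with earlier results of these data known. Values of some members are not reported here.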

Additional observations from a re-analysis of the deposited data

How the results depend on the processing

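None of the 40 member calls changed sign in any of the 15 alternative fits, and 27 passed the threshold in each of them, among them 25 of the 33 nuclear calls. The count of mitochondrial members called lower was 3 at an adjusted p under 0.01 and ranged from 2 to 9 as each sample was left out, with 2 without IRF1shRNA replicate 3 and 3 without control replicate 3. Library size as the only scaling called 1 mitochondrial member higher (MT-CO1). The count of assembly factors called lower ranged from 3 to 5 as each sample was left out, with 5 without IRF1shRNA replicate 1. The count called higher, 20 in the main fit, ranged from 14 to 19. The log2 difference in the ratio of mitochondrial to nuclear counts (IRF1shRNA minus control) was −0.0971 for complex IV as a mean of log2 CPM. For that complex it was −0.0778 without COX7C and −0.255 without MT-CO1. Without COX7C and ATP5F1B, this difference was −0.234 for complex V and −0.109 for all complexes. Without MT-CO1 it was −0.215 for all complexes. MT-CO3 turned to 0.015 under library size only and 0.0083 under upper quartile scaling, and ranged from −0.0791 to 0.0168 as each sample was left out (without IRF1shRNA replicate 3). MT-RNR1 ranged from −0.15 (without IRF1shRNA replicate 3) to 1.26, and MT-RNR2 was 0.0094 with the filter at 1 CPM, 0.0356 with halved counts, 0.0341 with library size only and 0.0277 with upper quartile scaling, and ranged from −0.58 to 0.99 as each sample was left out, with 0.51 without IRF1shRNA replicate 2 and 0.99 without control replicate 1. The cause was not tested.

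Same-numbered samples correlated at −0.05, 0.04 and 0.07 in their deviations from the group means. These values show no strong shared effect of the replicate number, but cannot tell whether same-numbered cultures were handled together. A replicate block moved MT-RNR1 from 0.45 to 0.04 and MT-RNR2 from −0.02 to −0.33 on the log2 scale. With the replicate number as a block, 42 members were called, including all 40 of the main fit, with 22 nuclear members higher, 13 nuclear lower and 7 mitochondrial lower. Depth limits the scarce isoforms most, since 3 counts equal up to 0.0540 CPM in the smallest library.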

Other observations

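The 95 pseudogene symbols that were left out held few counts, equal to 0.162% to 0.190% of the nuclear subunit counts of a sample. One of them, COX7CP1, a processed copy of COX7C named after its values were seen, had 92, 63 and 133 counts in control replicates 1 to 3 and 196, 116 and 252 counts in IRF1shRNA replicates 1 to 3, and the library total of IRF1shRNA replicate 2 was the smallest. Reads of COX7C that were assigned to this copy cannot be told apart from its own transcripts, and how such reads were counted is not given in the sources used here.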
